A study of Homo sapiens with 6 samples.

Results

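The genes described here are 10 human genes of glucose uptake and glucose sensing, out of 20263 genes in the deposited table. They were chosen by name, through the current symbol of each Ensembl identifier: the glucose transporters SLC2A1, SLC2A3, SLC2A6, SLC2A8, SLC2A10 and SLC2A12, the glucose-sensing factor MLXIP (MondoA) with its partner MLX, and the target genes TXNIP and ARRDC4. RNA sequencing covered 6 libraries of cells labelled LNCaP, a hormone-dependent human prostate cancer line: 3 transfected with an empty vector as control and 3 with a LINC01518 overexpression vector. LINC01518 is a long non-coding RNA. The series text names MEG3 as the insert instead, and the sample labels are followed here. The level of the insert was not analysed here, and neither the vector's promoter, the time after transfection nor the origin of the replicates from separate cultures is given in the sources used here. The p-values thus reflect how far these libraries vary, a spread that can be technical alone.

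Cells take up glucose down its gradient through membrane carriers of the SLC2A (GLUT) family. Once inside, glucose is phosphorylated, and the resulting sugar phosphate lets MondoA, bound to MLX, gather in the nucleus and switch on genes that carry carbohydrate response elements in their promoters. TXNIP and ARRDC4 are the textbook targets. Both encode alpha-arrestins that pull glucose transporters off the cell surface, so the pathway is known as a feedback loop on uptake.

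Library totals lay between 38161544 and 42553688 counts, and a count of 0 allowed up to 0.0703 to 0.0794 CPM (counts over the TMM-scaled library size), for counting error only. Of 12 markers of luminal prostate cells and LNCaP, KLK3, KLK2, KLK4, TMPRSS2 and FOLH1 had 0 counts in all 6 libraries, whereas the epithelial keratin gene KRT8 averaged 1363 CPM in the controls. Several genes that define the labelled line were thus at 0, and the cells are named here only as labelled. The 12 summed to 2764 to 2962 TPM in the controls and 3141 to 3337 TPM with overexpression, nearly all of it keratin mRNA, and 1 of the 6 tested, KRT8, was called higher. The summed TPM (transcript abundance scaled for length and library) of 6 trophoblast markers ranged from 1108 to 1188 with empty vector and from 1477 to 1804 with overexpression, and 3 of the 5 tested were called higher (CGA, ALPP and INSL4). In the controls nearly all of this sum was CGA (mean 861 TPM) and ALPP (268 TPM). The markers GATA3 (0.167 TPM), PSG1 (0.625 TPM) and CGB3 (0 TPM) were near or at 0 there. The 6 fibroblast markers ranged from 41.4 to 43.5 against 50.6 to 56.9 TPM in sum, with LUM at 0 in every library. Of the 4 tested, 2 were called higher on counts, COL1A1 and PDGFRB. COL1A1 averaged 24.8 against 34.1 TPM, whereas PDGFRB was slightly lower in TPM (16.3 against 15.7). The 6 immune markers ranged from 37.0 to 40.0 against 24.0 to 28.0 TPM, with PTPRC, CD3E and LYZ at 0. Nearly all of this sum was CD68, at a mean of 36.6 against 23.0 TPM, which was called lower. Neuroendocrine markers summed to 49.4 to 54.6 against 60.8 to 62.8 TPM (NCAM1 at 0) and endothelial ones to 5.32 to 5.92 against 4.23 to 5.77 TPM (KDR at 0). The neuroendocrine sum was nearly all ENO2, at a mean of 50.4 against 61.0 TPM, which was called higher. The endothelial sum was nearly all CDH5, which was not called. Sums carried by single genes do not measure a cell type. The part of these shifts in the results for the glucose genes was not tested. In bulk RNA, fewer cells of a type and less RNA per cell cannot be told apart.

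Overexpression against empty vector asked which genes change when the vector carries the insert. Of the 8 glucose genes with enough counts to be tested, 0 had an edgeR adjusted p under 0.05, and 3 had an unadjusted p under 0.05 (SLC2A3, SLC2A6 and ARRDC4). Across all 13543 genes tested, 5.6% were called and 23.6% had an unadjusted p under 0.05. DESeq2 called 1 of the members, SLC2A6, while limma-voom and limma on the deposited TPM each called 0. The 3 libraries of each group lay apart for 4 of the 8, SLC2A3 and SLC2A6 on the higher side and TXNIP and ARRDC4 on the lower side, against 31.4% of all genes. The median log2 fold change of the 8 was -0.06, beside -0.00 over all genes, and the range ran from -0.42 to 0.30.

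**Figure D1:**
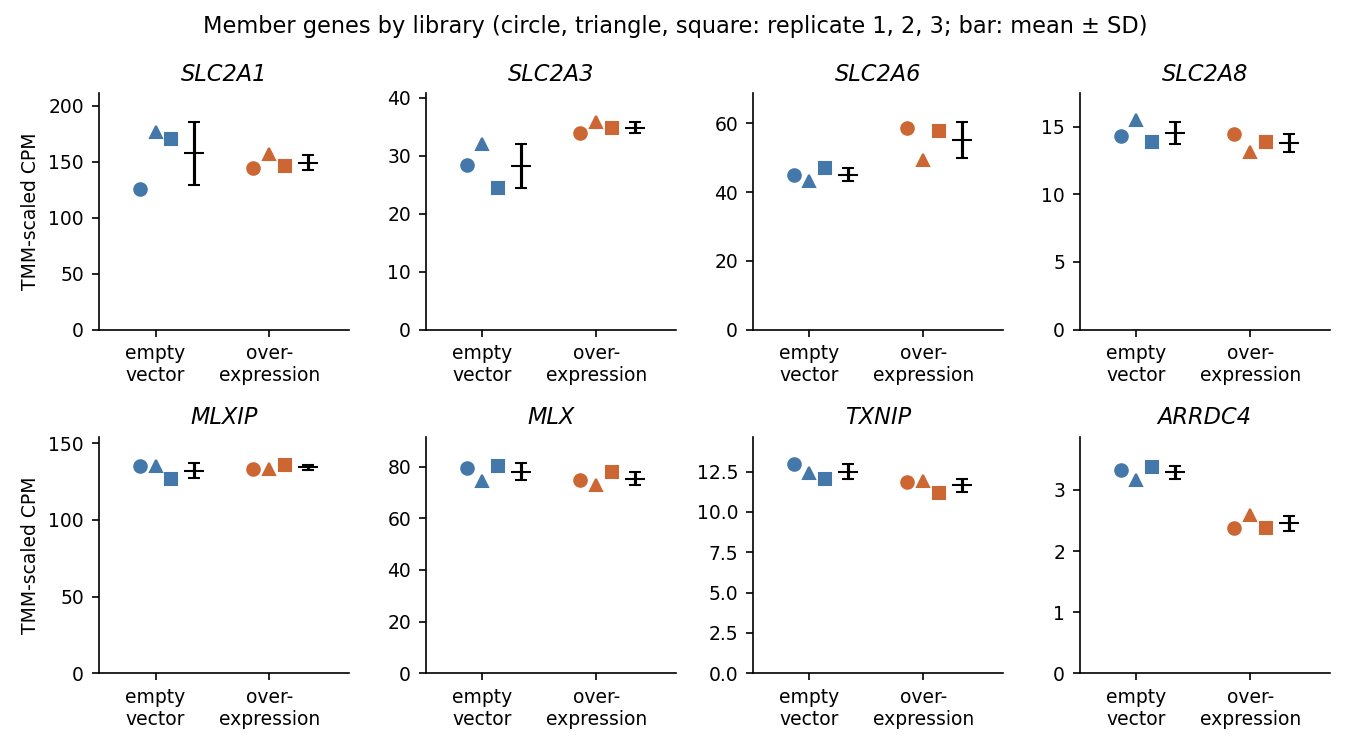
TMM-scaled CPM of the 8 tested genes in each library, with empty vector on the left (blue) and overexpression on the right (orange). Symbols mark replicates 1, 2 and 3, and the black bar is the mean ± SD of 3 libraries. SLC2A1 in empty vector replicate 1 lies at 125 CPM, below the other 5 libraries, and the ARRDC4 values of both groups are apart.

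SLC2A1 encodes GLUT1, the ubiquitous carrier for basal glucose uptake (chromosome 1, 42925375 to 42959176, GRCh38, minus strand). It was the most abundant of the 10 genes per transcript length. Its CPM were 125, 177 and 170.3 with empty vector and 144, 157 and 146 with overexpression. The first empty vector library was the lowest of the 6 and the other empty vector libraries were the highest, so the groups overlapped. The means were 157 ± 27.9 and 149 ± 6.87 CPM (SD, n = 3 each), with a log2 fold change of -0.08 and a 95% interval of -0.40 to 0.24 (edgeR adjusted p = 0.765). The SLC2A1 estimate changed sign only without empty vector replicate 2. It was -0.22 without empty vector replicate 1 (edgeR adjusted p = 0.0823), 0.01 without replicate 2 and -0.02 without replicate 3.

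SLC2A3 encodes GLUT3, a carrier of high glucose affinity best known from neurons (chromosome 12, 7919230 to 7936275, minus strand). It had 28.4, 32.0 and 24.4 CPM in the controls and 33.9, 35.8 and 34.8 CPM with overexpression. All 3 overexpression libraries were above all 3 controls, by a small margin over the highest control. Its log2 fold change of 0.30 (SE 0.098, 95% interval 0.08 to 0.53) did not pass (edgeR adjusted p = 0.115). The transcripts of SLC2A3 shared 15.3% of their 50-base windows with those of its neighbour copy SLC2A14, so part of its reads could match both. Whether such reads were counted or dropped was not examined. SLC2A14 itself had 6 to 14 counts per library, beside 947 to 1425 for SLC2A3.

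SLC2A6 encodes GLUT6, a transporter that resides on lysosomal membranes (chromosome 9, 133471095 to 133479137, minus strand). It had 45.1, 43.2 and 46.9 CPM in the controls and 58.7, 49.3 and 57.9 CPM with overexpression. The controls lay close together, and overexpression replicate 2 stood nearer to them than to its own group. The log2 fold change of SLC2A6 was 0.29 (SE 0.079, 95% interval 0.11 to 0.48), and it came nearest to a call among the 8 genes, with an edgeR adjusted p = 0.0711. DESeq2 put it past the threshold (adjusted p = 0.0230), as did edgeR without overexpression replicate 2 (log2 fold change 0.37, adjusted p = 0.0485). The other 5 fits without 1 library gave edgeR adjusted p between 0.0989 and 0.210.

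SLC2A8 encodes GLUT8, an intracellular hexose carrier (chromosome 9, 127397138 to 127408424, plus strand). Its CPM were 14.3, 15.5 and 13.8 with empty vector and 14.5, 13.1 and 13.8 with overexpression, and the groups overlapped. The 95% interval of its log2 fold change ran from -0.26 to 0.12 around -0.07 (edgeR adjusted p = 0.630).

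SLC2A10, the gene of GLUT10 (chromosome 20, 46709487 to 46736347, plus strand), and SLC2A12, that of the insulin-responsive GLUT12 (chromosome 6, 133988697 to 134052636, minus strand), were not tested. SLC2A10 had 0 counts in all 6 libraries. SLC2A12 had 0 counts in the 3 controls and in overexpression replicate 3, with 2 and 4 counts in overexpression replicates 1 and 2. Part of the span of SLC2A12, 1736 bases, overlaps TBPL1 on the opposite strand, whose counts were 396 to 491. Without a stated strand setting, it is not known whether such reads were told apart. Differences in these 2 genes were not detectable at this depth.

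**Figure D2:**
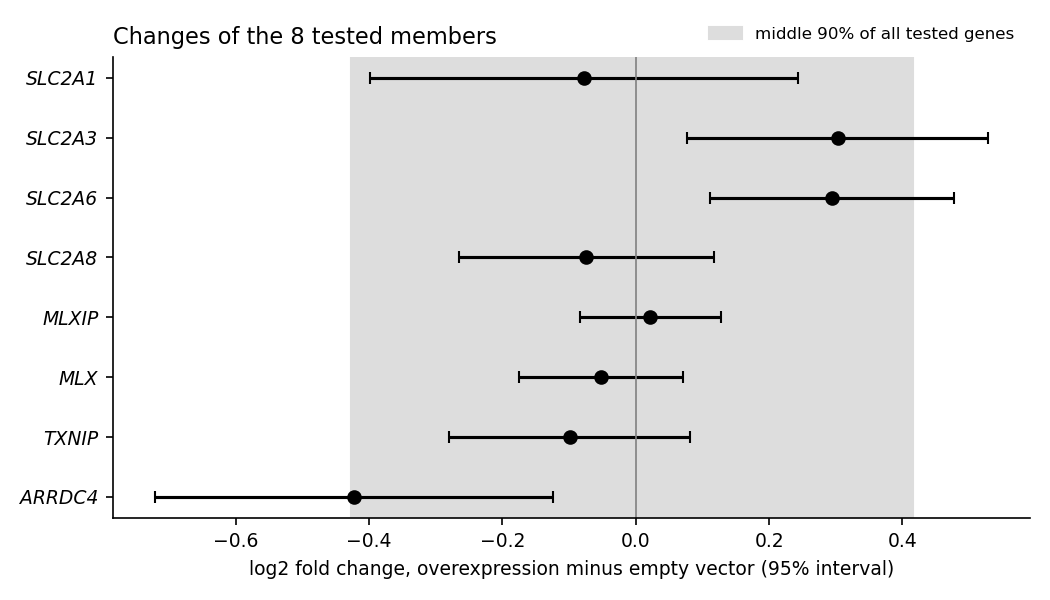
Log2 fold change of the 8 tested genes, overexpression minus empty vector, with 95% intervals from the edgeR fit on the horizontal axis. The grey band holds the middle 90% of all tested genes (-0.43 to 0.42), and each of the 8 estimates lies inside it.

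Per transcript length, SLC2A1 was the most abundant gene of the SLC2A family in every library. The 14 SLC2A genes in the table summed to 173.5, 202.7 and 186.8 TPM with empty vector and to 190.2, 189.5 and 189.4 TPM with overexpression. SLC2A1 made up 41.5% to 49.9% of that sum, SLC2A6 17.7% to 25.0%, SLC2A8 10.2% to 13.7% and SLC2A3 6.58% to 9.51%. In each of the 6 libraries SLC2A6 was the second most abundant. The share of SLC2A6 overlapped between the groups, at 22.3%, 17.7% and 20.4% against 24.5%, 21.3% and 25.0%. The share of SLC2A3 was 8.81%, 8.15% and 6.58% with empty vector and 8.89%, 9.51% and 9.14% with overexpression, without overlap. These shares are descriptions without a test.

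**Figure D3:**
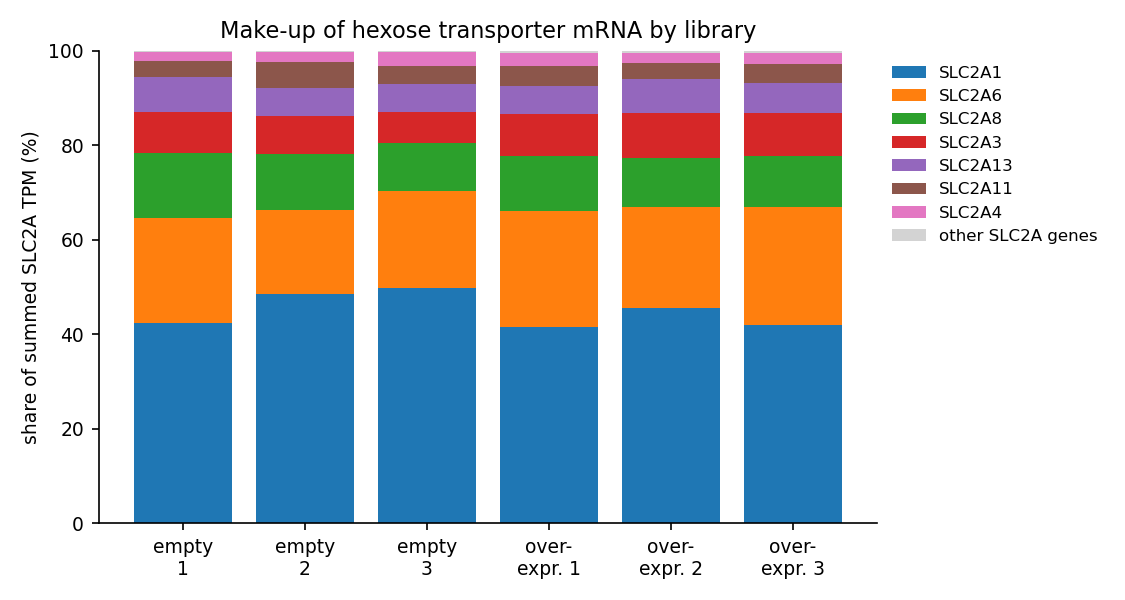
Share of the summed TPM of all SLC2A genes (vertical axis, %) held by each gene in each library. SLC2A1 is the largest block in all 6 bars, between 41.5% and 49.9%, followed by SLC2A6.

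Of the other 8 genes of the family, SLC2A13, which encodes a proton-coupled myo-inositol carrier, held 5.80% to 7.22% of the sum. SLC2A11 held 3.53% to 5.50% and SLC2A4, the gene of the insulin-responsive GLUT4, 1.87% to 2.90%, while each of the other 5 held at most 0.272%. Of the 6 that were tested, 0 were called by edgeR, 1 had an unadjusted p under 0.05, and DESeq2, limma-voom and limma on TPM each called 0. The 1 was SLC2A5, the fructose transporter gene, at 4, 16 and 10 counts with empty vector and 35, 26 and 23 with overexpression. All 3 overexpression libraries were above the controls at these low counts, with a log2 fold change of 1.51 (edgeR, SE 0.432, adjusted p = 0.0851). SLC2A2 and SLC2A7 had 0 counts throughout. Of the 7 genes in the list of sodium-glucose cotransporters and SWEET1 (SLC50A1), 4 were tested, and edgeR and limma-voom called 0, with 1, SLC50A1, at an unadjusted p under 0.05. DESeq2 called 1 and limma on TPM 0. SLC50A1 encodes a facilitative sugar carrier of a separate family and stood above SLC2A1 per transcript length, at 162 to 201 TPM. It had 118, 122 and 120.4 CPM in the controls and 102, 109 and 103 CPM with overexpression. Its groups did not overlap, and the log2 fold change of -0.20 (SE 0.048) had an edgeR adjusted p = 0.0518.

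MLXIP encodes MondoA, the glucose-sensing transcription factor (chromosome 12, 122078722 to 122147347, plus strand). Its libraries lay close together and the groups overlapped, at 135, 135 and 127 CPM in the controls and 133, 133 and 136 CPM with overexpression. The 95% interval of the MLXIP log2 fold change, -0.08 to 0.13 around 0.02, was the narrowest of the 8 (edgeR adjusted p = 0.812). On the deposited TPM its estimate was -0.09, and without empty vector replicate 3 it was -0.01, so it had no fixed sign.

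MLX encodes the partner that MondoA needs to bind DNA (chromosome 17, 42567068 to 42573239, plus strand). It had 79.3, 74.4 and 80.4 CPM in the controls and 74.8, 73.0 and 77.9 CPM with overexpression, with overlap. The log2 fold change of MLX was -0.05 (95% interval -0.18 to 0.07, edgeR adjusted p = 0.595). The span of the gene overlaps that of PSMC3IP on the opposite strand over 925 bases, and PSMC3IP had 1064 to 1228 counts. Without a stated strand setting, it is not known whether reads from the overlap were told apart.

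TXNIP and ARRDC4 are shown with the promoter window that was searched for carbohydrate response element cores. The core searched was CACGNG, of which the palindromic E-box CACGTG is 1 form, and the paired element was a pair of such cores on the same strand with 5 bases between them. Both strands were read in the RefSeq window from 250 bases before to 50 bases after each transcript start (build GRCh38.p14). Windows were found for 9 of the 10 genes, SLC2A3 being the one without. The sequences below run 5′ to 3′ along the gene, with each core on either strand in capitals: TXNIP at chr1:145996530-145996829 (minus strand), ARRDC4 at chr15:97960453-97960752 (plus strand) and MLX at chr17:42566850-42567149 (plus strand).
TXNIP: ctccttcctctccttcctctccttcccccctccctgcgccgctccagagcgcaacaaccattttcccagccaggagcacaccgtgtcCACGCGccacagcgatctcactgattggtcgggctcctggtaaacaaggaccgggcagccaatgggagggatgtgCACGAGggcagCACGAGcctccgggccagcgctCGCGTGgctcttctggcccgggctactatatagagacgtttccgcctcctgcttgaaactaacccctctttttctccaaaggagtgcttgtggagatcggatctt
ARRDC4: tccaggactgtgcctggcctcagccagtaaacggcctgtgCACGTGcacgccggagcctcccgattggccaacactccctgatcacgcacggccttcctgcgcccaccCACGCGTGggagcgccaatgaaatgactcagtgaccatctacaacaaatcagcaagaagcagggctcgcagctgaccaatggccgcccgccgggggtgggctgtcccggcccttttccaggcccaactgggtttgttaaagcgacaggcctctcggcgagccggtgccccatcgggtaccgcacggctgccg
MLX: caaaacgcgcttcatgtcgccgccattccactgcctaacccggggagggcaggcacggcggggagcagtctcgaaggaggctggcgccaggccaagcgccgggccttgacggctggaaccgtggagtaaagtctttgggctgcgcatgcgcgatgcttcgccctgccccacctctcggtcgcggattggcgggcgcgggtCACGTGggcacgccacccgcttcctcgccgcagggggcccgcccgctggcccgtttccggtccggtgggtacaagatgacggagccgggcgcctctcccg
In TXNIP the paired element began 88 bases before the start, and further cores began 163 bases and, on the other strand, 55 bases before it. ARRDC4 held a palindromic E-box 210 bases before the start and overlapping cores on both strands 142 and 140 bases before it, without the paired spacing. MLX held 1 palindromic E-box, 50 bases before the start. SLC2A6 and SLC2A8 had 1 core each, and the windows of SLC2A1, SLC2A10, SLC2A12 and MLXIP had none of these letters, nor had a second TXNIP window further downstream. Of all 35116 windows, 30.5% held a core, 7.26% the palindrome and 0.057%, 20 windows, the paired element. A match describes the letters and not a bound site.

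**Figure D4:**
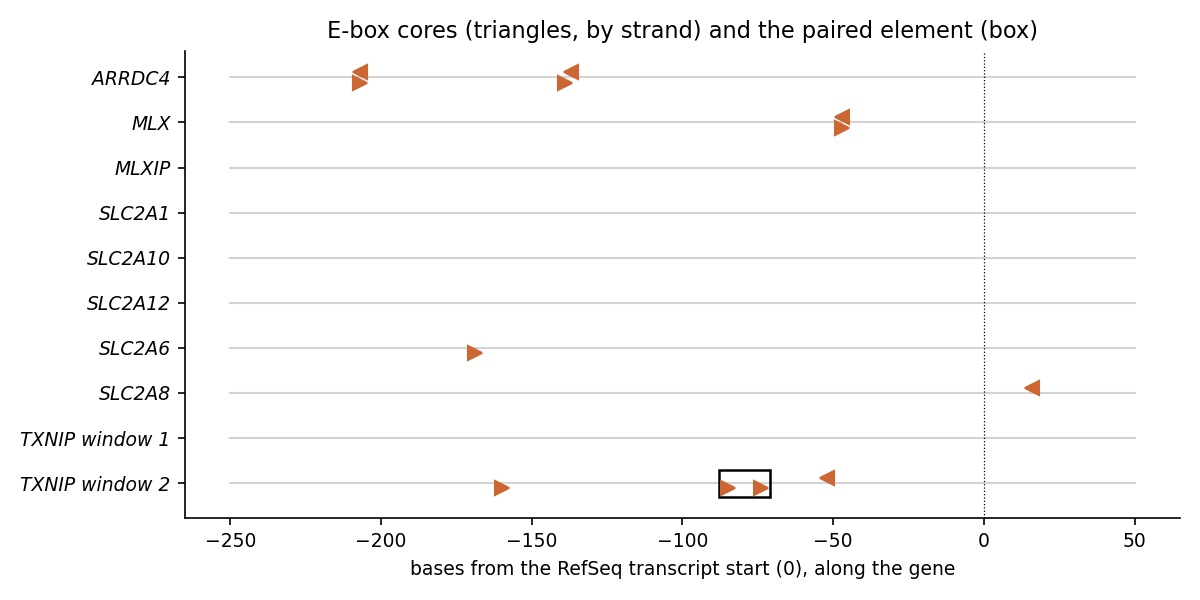
Positions of E-box cores in the RefSeq promoter windows, in bases from the transcript start on the horizontal axis, with 1 row per window. Triangles point along the strand of the core and the box marks the paired element, which only the upstream TXNIP window holds among the 10 windows, 88 bases before the start.

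TXNIP encodes the thioredoxin-interacting alpha-arrestin that lowers GLUT1 at the surface (chromosome 1, 145992435 to 145996600, minus strand). It had 13.0, 12.4 and 12.1 CPM in the controls and 11.9, 11.9 and 11.2 CPM with overexpression. Every overexpression library was below every control, although the gap was small beside the spread within groups. The means were 12.5 ± 0.468 and 11.7 ± 0.400 CPM (SD, n = 3 each), with a log2 fold change of -0.10 (edgeR, SE 0.078, adjusted p = 0.489). The 95% interval of TXNIP, -0.28 to 0.08, leaves out a change as large as that estimated for its co-target ARRDC4. That the TXNIP and ARRDC4 estimates differ was not tested.

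ARRDC4 encodes a related alpha-arrestin (chromosome 15, 97960698 to 97973838, plus strand). It had 136, 135 and 131 counts with empty vector and 100, 102 and 90 with overexpression, which corresponded to 3.32, 3.17 and 3.38 against 2.38, 2.59 and 2.38 CPM. All overexpression libraries lay below all controls, with a gap wider than either group's spread. The means were 3.29 ± 0.111 and 2.45 ± 0.122 CPM (SD, n = 3 each). Its log2 fold change of -0.42 (SE 0.129, 95% interval -0.72 to -0.12) was the furthest from 0 of the 8 genes but did not pass (edgeR adjusted p = 0.1004). The estimate stayed between -0.40 and -0.46 without any 1 library, with edgeR adjusted p of 0.168 to 0.248. DESeq2 gave an adjusted p = 0.211.

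Ordered by mean TPM over all 6 libraries, the genes ran from SLC2A1 (85.0) over MLX (65.7), SLC2A6 (41.1), MLXIP (34.6), SLC2A8 (21.5), SLC2A3 (16.1) and TXNIP (8.22) to ARRDC4 (1.38). Only the neighbours SLC2A6 (35.9 to 47.3 TPM) and MLXIP (32.3 to 37.7 TPM) overlapped in their ranges. Both target genes thus stood below the factor and its partner in TPM. By the likeness of log2 CPM over the 6 libraries, TXNIP was nearest to SS18 (Pearson r = 0.984), TAF5L (0.982), ZBTB11 (0.981) and ARMC1 (0.981), out of 6227 genes compared. SLC2A1 was nearest to ZFPL1 (r = 0.986), RUVBL2 (0.982), DDIT4 (0.980) and PTGES2 (0.980). These were picked as the highest of all compared, over 6 libraries that share the group difference, and carry no test.

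Around these 10 genes, 73 further genes of glucose transport and sensing were examined, and 59 were tested. By edgeR 2 were called higher and 2 lower, 6.78% of the 59 beside the 5.6% of all genes. An unadjusted p under 0.05 was found for 16 of the 59, beside 23.6% of all genes. All genes together had 484 higher and 275 lower calls (3.57% and 2.03%), or 346 and 382 when libraries were scaled by size alone. The median log2 fold change of the 59 was -0.01, beside -0.00 over all genes. Those called higher were MXD4 and TBC1D1, and those called lower were MLXIPL and ARRDC3. With the replicate number as a block, edgeR called 0 of them, with 15 at an unadjusted p under 0.05. DESeq2 called 10, limma-voom 4 and limma on TPM 2. Over all genes, DESeq2 called 1316 of 16239, limma-voom 747 of 13543 and limma on TPM 282 of 12329. The 16239 are all genes with any count, including those that the filter within DESeq2 leaves without an adjusted p. Without any 1 library other than empty vector replicate 3, edgeR called 1 or 2.

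**Figure D5:**
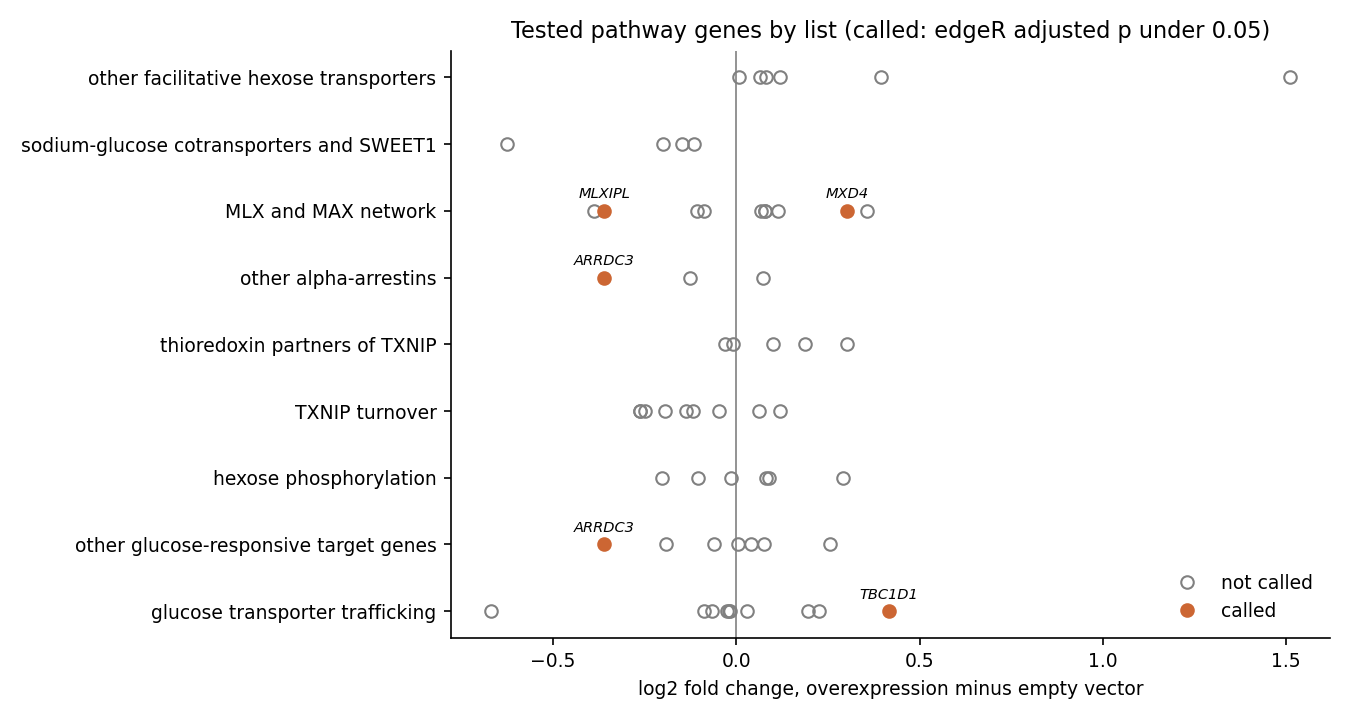
Log2 fold change (horizontal axis, overexpression minus empty vector) of each tested gene of the 9 pathway lists. Filled points passed edgeR at an adjusted p under 0.05: MXD4 and TBC1D1 lie right of 0, MLXIPL and ARRDC3 (shown in both lists that hold it) left of 0, and SLC2A5 is the open point at 1.51.

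In the network of MLX and its relative MAX, edgeR called 1 of 10 tested genes higher and 1 lower, and 8 were not called. Of all genes, 3.57% were called higher and 2.03% lower. MLXIPL encodes ChREBP, the second glucose-sensing partner of MLX. It fell from 22.0, 22.3 and 22.6 CPM with empty vector to 17.5, 18.1 and 16.5 CPM with overexpression, with a wide gap between the groups. The log2 fold change of MLXIPL was -0.36 (SE 0.070, edgeR adjusted p = 0.0293), but the call was lost without any 1 of the 6 libraries (adjusted p 0.0600 to 0.107) and on TPM. Per transcript length, MLXIPL averaged 16.6 TPM beside 34.6 TPM for MLXIP. MXD4, which encodes a repressor that pairs with MAX or MLX, rose from 74.0, 75.0 and 78.3 to 98.3, 88.3 and 93.4 CPM. Its log2 fold change was 0.30 (SE 0.056, edgeR adjusted p = 0.0263), and the call was kept in 2 of the 6 fits without 1 library, those without empty vector replicate 3 or overexpression replicate 2, and lost on TPM (0.0571). MXI1, the most abundant of this list at 93.0 TPM, had a log2 fold change of 0.07, and MYC one of -0.09, neither called.

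Of the other alpha-arrestins, 1 of 3 tested genes was called lower by edgeR, beside 2.03% of all genes. ARRDC3, whose product directs membrane proteins to degradation and which also responds to glucose, had 40.3, 42.2 and 36.9 CPM in the controls and 31.3, 32.8 and 28.9 CPM with overexpression. The groups lay apart, with a log2 fold change of -0.36 (edgeR, SE 0.078, adjusted p = 0.0393). The ARRDC3 call was kept only without empty vector replicate 3 (adjusted p = 0.0418) among the 6 fits without 1 library, and it was lost on TPM (0.0740). ARRDC1 (88.8 TPM, the most abundant) was at 0.07 and ARRDC2 at -0.13. Of 7 tested genes known to respond to glucose, edgeR and limma-voom each called 1, ARRDC3, while DESeq2 called ARRDC3 and TKT and limma on TPM called TKT alone. TKT of the pentose phosphate pathway, the most abundant of this list, had 708, 713 and 725 TPM in the controls and 850, 868 and 848 TPM with overexpression. Its groups lay well apart in TPM. In CPM they were at 862, 986 and 1030 against 1224, 1115 and 1098, apart by less than the range within either group. The log2 fold change of TKT on counts was 0.26 (adjusted p = 0.0896 by edgeR, 0.0294 by DESeq2 and 0.0306 by limma on TPM).

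Beyond the listed genes, the paired element of TXNIP occurred in the promoter windows of 16 tested genes, TXNIP included. By edgeR 0 of the 16 were called, beside 5.68% of all tested genes with a window. An unadjusted p under 0.05 was found for 4 of the 16, beside 23.6% of all tested genes. These were GFPT1 (log2 fold change -0.70), P4HA1 (-0.17), STX12 (-0.24) and RAN (0.20). DESeq2 called 1 of them, GFPT1 (adjusted p = 4.08e-04), while limma-voom and limma on TPM each called 0. GFPT1 encodes the first enzyme of hexosamine synthesis from glucose. It averaged 251 ± 12.1 CPM in the controls and 155 ± 39.5 CPM with overexpression (SD, n = 3 each), with an edgeR adjusted p = 0.124. The median log2 fold change of the 16 was -0.07.

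Hexose phosphorylation produces the sugar phosphate that MondoA senses. Of 6 tested genes of this list 0 were called by edgeR, DESeq2, limma-voom or limma on TPM, and 1 had an unadjusted edgeR p under 0.05. That gene, G6PC3, encodes a glucose-6-phosphatase that releases free glucose. It had 43.3, 44.7 and 43.9 CPM with empty vector and 58.1, 58.1 and 45.2 CPM with overexpression, so that overexpression replicate 3 stood close to the controls (log2 fold change 0.29, edgeR adjusted p = 0.129). HK1, the hexokinase gene with the highest level of the list (148 TPM), had 263, 258 and 266 CPM in the controls and 285, 272 and 280.2 CPM with overexpression. These groups lay apart without a call (log2 fold change 0.09, edgeR adjusted p = 0.226). HK2, a second hexokinase gene, had a log2 fold change of 0.08 and overlapping groups. HK3, G6PC1 and G6PC2 had 0 counts throughout.

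Of 10 genes that move glucose transporters between membranes, edgeR, limma-voom and limma on TPM each called 1, TBC1D1, and DESeq2 called 3. Of all genes, edgeR called 5.6%. TBC1D1, which encodes a RAB GTPase-activating protein that holds transporter vesicles back, rose from 63.4, 60.7 and 56.4 to 76.7, 80.5 and 83.8 CPM. Its log2 fold change was 0.42 (SE 0.062, edgeR adjusted p = 0.0136) on counts and 0.78 on TPM, where the libraries read 30.8, 29.8 and 37.3 against 50.1, 55.7 and 64.7. The TBC1D1 call was lost without overexpression replicate 3 (adjusted p = 0.0585) with the replicate number as a block (0.0577) and on TPM without a filter (0.0533). PACSIN3, the most abundant of this list at 287 TPM, was at 0.23 (adjusted p = 0.0930 by edgeR and 0.0461 by DESeq2), and VPS26A, the other DESeq2 call, at -0.67 (0.186 and 0.00800).

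The genes of TXNIP's partners and turnover gave no call by edgeR or limma. Of 5 tested thioredoxin genes 0 were called by edgeR, with 2 at an unadjusted p under 0.05 (TXN at 0.19 and TXNRD2 at 0.30). Of 9 genes listed for TXNIP turnover, AMPK subunit genes among them, 0 were called by edgeR, with 1 at an unadjusted p under 0.05. In each of these lists limma-voom and limma on TPM called 0 and DESeq2 called 1, TXNRD2 (adjusted p = 0.0218) and PRKAB2 (0.0172). The thioredoxin list was led by PRDX1 (1340 TPM, log2 fold change 0.10) and the turnover list by the AMPK subunit gene PRKAG1 (141 TPM, 0.06). PRKAB2, another AMPK subunit gene, was the 1 with the low p, at 73.0, 72.2 and 69.0 CPM in the controls and 56.7, 64.7 and 57.2 CPM with overexpression (log2 fold change -0.26, edgeR adjusted p = 0.0599).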

How the data were processed

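The submitters' processing notes name Trimmomatic 0.36, HISAT2 with build GRCh38, featureCounts (Subread 1.5.1) and DESeq. For the annotation, strand setting and TPM tool, nothing is stated in the sources used here. The authors deposited raw gene counts as whole numbers, used for the main test, and TPM per gene and library, used for levels between genes and alternative fits. All 12 columns matched samples by name, and 0 were left out. Symbols were found for 19761 of 20263 genes. Positions are from GENCODE release 29.

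In R 4.3.3, edgeR 4.0.16 kept genes by filterByExpr (minimum count 10, minimum total 15), scaled by TMM and fitted all 6 libraries by robust quasi-likelihood on the group alone. P-values were adjusted by Benjamini-Hochberg over 13543 genes and called under 0.05. SE is the log2 fold change over the square root of F. The fits were tested on simulated data. DESeq2 1.42.0, limma 3.58.1 (voom on counts, and on log2(TPM + 1) with TPM of at least 1 in 3 libraries), scalings, filters, pseudocounts, a replicate block and leaving out each library were alternatives. Same-numbered libraries were not paired.

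The 10 genes, the 9 pathway lists and the markers were chosen with earlier results of these data known. A few genes of these lists are not reported here and are left out of the counts. Named are all 10 genes, each called list gene, the gene of highest TPM in each list and the 4 genes most like TXNIP and SLC2A1. Of the genes at 0 or overlapping a member, only some are named. Others were named after their values were seen.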

Additional observations from a re-analysis of the deposited data

How the results depend on the processing

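None of the 10 genes was called by edgeR with library size only, upper-quartile or RLE scaling, without a count filter, with at least 50 counts in 3 libraries or the replicate block, nor by limma, while DESeq2 called 1, which was higher. Without 1 library edgeR called 0 to 1 of them. Only SLC2A1 and MLXIP had estimates of both signs. DESeq2 called 1316 genes of all (788 higher, 528 lower) and 10 of the pathway genes (5 higher, 5 lower). Limma on log2(TPM + 1) called 282 (123 and 159), on log2(TPM + 0.1) 267 (119 and 148), and without a filter 152 (74 and 78), with 2 pathway genes each, 2 higher and 0 lower. Library size only gave 4 lower pathway genes against 2. Without 1 library, 193 to 458 genes were called (131 to 287 higher, 62 to 171 lower), and of the pathway genes 1 to 4 (1 to 3 higher, 0 to 1 lower). With the replicate block edgeR called 232 genes (154 higher, 78 lower) and 0 pathway genes (0 higher, 0 lower), with 15 of all tested pathway genes at an unadjusted p under 0.05. Same-numbered libraries correlated at 0.05, 0.04 and 0.15 in their deviations, so the numbers were not taken as pairs, and not every library correlated best with its own number. The cause of these differences was not tested. Counts of SLC2A10, SLC2A12 and SLC2A5 were 0 or low, which limits what their values can show.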

Other observations

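Some pathway genes varied more between libraries of a group than between groups, and they were picked after their values were seen. MXD1, which encodes a MAX-binding repressor, had 5.13 CPM in overexpression replicate 3 and 16.3 to 17.7 CPM in the other 5 libraries. KLF10, a glucose-responsive factor gene, had 59.6 CPM in empty vector replicate 3 and 61.4 in overexpression replicate 2, beside 84.2 to 94.3 in the others. MAX was lowest in those libraries as well, at 29.3 and 35.1 CPM against 39.3 to 44.1. VPS26A, which encodes a retromer subunit that returns GLUT1 to the surface, had 92.9, 48.6 and 81.0 CPM with empty vector and 45.1, 46.7 and 48.1 CPM with overexpression, so that empty vector replicate 2 stood beside the overexpression libraries (adjusted p = 0.186 by edgeR and 0.00800 by DESeq2).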
